A study of Mus musculus with 15 samples.

Results

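Folate-dependent one-carbon metabolism and the methionine cycle were described by 33 genes, chosen by symbol as the enzymes and carriers of folate uptake, folate interconversion, glycine cleavage, methionine and S-adenosylmethionine synthesis, homocysteine disposal and small-molecule methyl transfer. All 33 symbols were among the 30386 rows of a table of read counts per gene from mouse brain, and 24 of them had enough reads to be tested, among 11718 genes tested in all. The table held 15 libraries in 3 groups of 5. Het_B12 libraries came from Tbx1+/- mice injected intraperitoneally with vitamin B12 in PBS at 20 mg/kg, Het_PBS libraries from Tbx1+/- mice injected with PBS, and WT_PBS libraries from wild-type mice injected with PBS. All groups were handled alike, with 2 injections a week over a period of 4 weeks that began when mice were 4 weeks old. Wild types given vitamin B12 were not analysed here, so the effect of the vitamin was compared in heterozygotes only. Tbx1 is a T-box transcription factor gene. The sources used here do not give the strain, the sex or the design of the Tbx1 allele. Nor do they say whether every library is from its own mouse, so p-values reflect how far these libraries spread.

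Folate carries one-carbon units that are used to make purines, thymidylate and methionine. Methionine synthase, which needs vitamin B12 as its cofactor, passes a methyl group from folate to homocysteine, and the methionine formed is turned into S-adenosylmethionine, the methyl donor of most methyltransferases. In mitochondria serine and glycine are the main sources of the one-carbon units; the glycine cleavage system, a complex of separate protein components that is abundant in astrocytes, takes glycine apart, and its loss in people causes nonketotic hyperglycinaemia, a brain disease.

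Libraries were QuantSeq 3′ libraries, which sequence the end of a transcript, and held 1683258 to 2746122 counts, so that 3 reads amounted to 1.02 to 1.79 CPM, the count of a gene scaled by the size of its library. Tbx1 itself had 1 read in all Het_B12 libraries, 3 reads in Het_PBS libraries and 3 in WT_PBS libraries, each in 1 library, too few to check the genotype labels. The labels name the tissue both as whole brain and as brain hemisphere and name RNeasy and Qiazol as ways to isolate RNA. They give 1 animal number to both Het_B12 1 and Het_PBS 5. On the first principal component (18.0% of the variance) Het_B12 libraries lay at 19.1 to 32.8 and WT_PBS 3 lay beside them at 17.8, whereas all remaining PBS libraries were at -22.4 to -10.2; Het_PBS 5 stood apart on the second component, at 43.5. Values without Het_B12 1, Het_PBS 5 or WT_PBS 3 are given below for part of the genes, not for every member or comparison.

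The members differed widely in level, and most were sparse. Levels are CPM scaled by the trimmed mean of M-values; in 3′ libraries the reads of a gene do not scale with transcript length in principle, so they are not divided by length. Ahcyl1, an S-adenosylhomocysteine hydrolase-like protein known as the IP3 receptor regulator IRBIT, had the highest level of the 33, with a mean of 237 CPM over the 15 libraries. Mat2a, the catalytic subunit of the S-adenosylmethionine synthetase of most tissues, followed at 189 CPM. These levels were at the 94.2 and 92.4 percentile of the genes tested. Mat2b, the regulatory subunit of the same synthetase, stood at 53.4 CPM, Gcsh at 52.8 CPM and Ahcyl2, the close relative of Ahcyl1, at 49.6 CPM. The mean of each of the other 19 tested members was under 25 CPM and under that of the median tested gene. Summed over the 33 members the level was 783 ± 30.0 CPM in Het_B12 libraries, 840 ± 71.6 CPM in Het_PBS libraries and 836 ± 47.8 CPM in WT_PBS libraries (SD, n = 5 each), and the groups overlapped.

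**Figure D1:**
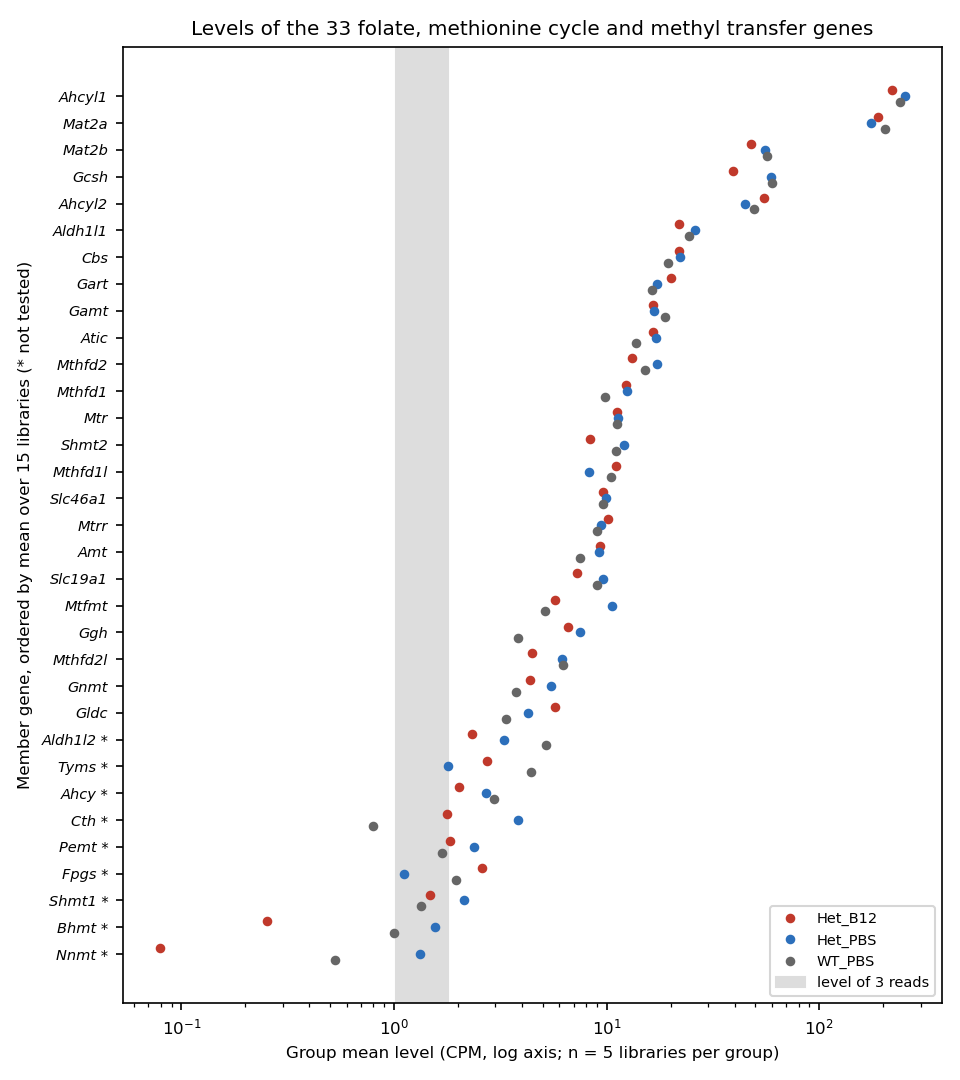
Mean level of each of the 33 members in each group (CPM, log axis), with members ordered by their mean level and untested members starred. Ahcyl1 and Mat2a lie above 100 CPM in every group, and 19 of the 24 tested members have a mean under 25 CPM over the 15 libraries.

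Of the 24 members tested, 1 changed with vitamin B12 in heterozygotes. Gcsh, which encodes the H protein that shuttles the aminomethyl group between the other components of the glycine cleavage system and also carries lipoate, was lower in Het_B12 than in Het_PBS libraries. That is 4.17% of the members, against 7.26% of all genes tested called in this comparison, 3.47% higher and 3.79% lower, so the share of members called was not above the background. Het_B12 and Het_PBS values overlapped for each of the 24 members, whereas 7.83% of all genes had ranges that did not. At an unadjusted p under 0.05 there were 3 members, Gcsh, Mtfmt and Ahcyl2 (12.5%, against 21.7% of all genes). The fold change was under 0 on the log2 scale for 17 members (70.8%, against 48.6% of all genes), with a median of -0.06 for the members and 0.01 for all genes tested. For 16 members (66.7%, against 75.2% of all genes) the 95% interval of the fold change lay within a 2-fold change either way; for the other 8 the interval reached past it, so a change of that size is not excluded.

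Gcsh (ENSMUSG00000034424, GRCm38 chr8:116981810-116993537, minus strand) had levels of 37.3, 35.5, 35.0, 34.6 and 54.4 CPM in the 5 Het_B12 libraries. Het_PBS libraries had 69.7, 44.2, 57.0, 56.6 and 68.2 CPM, and WT_PBS libraries had 63.2, 52.1, 61.4, 53.0 and 70.2 CPM. Het_B12 1 to Het_B12 4 lay below every PBS library, and Het_B12 5 alone lay inside both PBS ranges. The mean was 39.3 ± 8.49 CPM in Het_B12 libraries, 59.1 ± 10.3 CPM in Het_PBS libraries and 59.96 ± 7.57 CPM in WT_PBS libraries (SD, n = 5 each). Between Het_B12 and Het_PBS libraries the log2 fold change was -0.58 ± 0.16 (SE), a fold of 0.670, with a 95% interval of -0.90 to -0.26 and an adjusted p of 0.0178 in edgeR's quasi-likelihood test with Benjamini-Hochberg adjustment. DESeq2 and limma-voom called Gcsh too, at adjusted p of 0.00930 and 0.0216. The call was lost without Het_B12 3, Het_B12 4 or Het_PBS 1 (adjusted p 0.0508, 0.0517 and 0.0596), while the log2 fold change kept between -0.73 and -0.51 in all 15 fits that left out 1 library. It held without Het_B12 1 (-0.56, adjusted p 0.0462) and without Het_PBS 5 (-0.53, adjusted p 0.0465). Against WT_PBS libraries the log2 fold change of Het_B12 libraries was -0.61 ± 0.16 with an adjusted p of 0.0133, -0.60 with an adjusted p of 0.0135 without WT_PBS 3, and -0.59 with an adjusted p of 0.0381 without Het_B12 1; this call was lost without WT_PBS 5 (adjusted p 0.0581). Het_PBS and WT_PBS libraries had a log2 fold change of -0.03 ± 0.16 (95% interval -0.34 to 0.29, adjusted p 0.985). No other annotated gene overlaps Gcsh, and no annotated transcript matched its last 300 bases at 95% identity over 50 bases or more.

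The other components of the glycine cleavage system did not pass. Gldc, the glycine decarboxylase that starts the reaction, averaged 5.74 ± 1.67 CPM in Het_B12 libraries, 4.25 ± 2.48 CPM in Het_PBS libraries and 3.35 ± 1.44 CPM in WT_PBS libraries. Its log2 fold change was 0.45 ± 0.44 (95% interval -0.44 to 1.35) between Het_B12 and Het_PBS libraries. Amt, the aminomethyltransferase that hands the one-carbon unit to folate, averaged 9.32 ± 1.54 CPM in Het_B12 libraries, 9.16 ± 4.75 CPM in Het_PBS libraries and 7.50 ± 4.95 CPM in WT_PBS libraries, with a log2 fold change of 0.04 ± 0.38 (95% interval -0.72 to 0.81) between Het_B12 and Het_PBS libraries. The interval of Amt includes the log2 fold change of Gcsh and that of Gldc does not, and the difference between Gcsh and either of them was not tested. The promoters of the 3 components are shown because 1 of them changed while the others did not pass. They are RefSeq windows on GRCm38.p6 from 250 bases before to 50 bases after the start, read 5′ to 3′ on the strand of the gene, at chr8:116993449-116993748 (minus) for Gcsh, chr19:30175392-30175691 (minus) for Gldc and chr9:108296655-108296954 (plus) for Amt. Capitals mark the GC box GGGCGG or the box CCAAT, each searched on both strands, so that a match on the other strand reads CCGCCC or ATTGG.
Gcsh: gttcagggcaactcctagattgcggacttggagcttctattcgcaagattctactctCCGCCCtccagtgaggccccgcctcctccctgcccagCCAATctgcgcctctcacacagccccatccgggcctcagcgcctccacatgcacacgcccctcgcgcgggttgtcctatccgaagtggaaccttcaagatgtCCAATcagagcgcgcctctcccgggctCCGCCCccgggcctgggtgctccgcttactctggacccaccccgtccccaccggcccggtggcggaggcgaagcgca
Gldc: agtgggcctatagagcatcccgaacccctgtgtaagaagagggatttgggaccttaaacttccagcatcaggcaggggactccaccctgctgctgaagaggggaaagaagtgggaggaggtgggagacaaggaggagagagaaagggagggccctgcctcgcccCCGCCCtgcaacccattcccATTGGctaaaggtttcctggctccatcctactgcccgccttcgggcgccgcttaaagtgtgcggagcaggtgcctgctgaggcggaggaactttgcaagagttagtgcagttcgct
Amt: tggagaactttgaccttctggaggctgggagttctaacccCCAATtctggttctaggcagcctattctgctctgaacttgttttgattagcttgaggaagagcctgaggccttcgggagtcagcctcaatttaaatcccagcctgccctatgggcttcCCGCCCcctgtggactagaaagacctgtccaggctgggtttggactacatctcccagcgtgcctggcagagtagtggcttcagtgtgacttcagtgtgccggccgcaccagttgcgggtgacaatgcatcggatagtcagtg
Gcsh holds 2 GC boxes and 2 CCAAT boxes, and Gldc and Amt hold 1 of each. Among the 29 members with such a window, 24 hold a GC box (82.8%, against 38.2% of all genes) and 19 hold CCAAT (65.5%, against 41.1% of all genes). Of 23 tested members, 20 hold a GC box (87.0%, against 70.5% of tested genes) and 14 hold CCAAT (60.9%, against 42.8% of tested genes). CACGTG, the E-box, is in 3 members (10.3%, against 8.09% of all genes), or in 2 of 23 tested members and 1097 of 9119 tested genes, and the motif of NRF1 is in 3 others (10.3%, against 5.19% of all genes), or in 3 of 23 tested members and 11.7% of tested genes. TGATGNAAN, the core of the amino acid response element bound by ATF4, is in 0 members, in 4.5% of all genes and in 2.62% of tested genes. Such matches describe the letters of these windows and say nothing of binding.

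**Figure D2:**
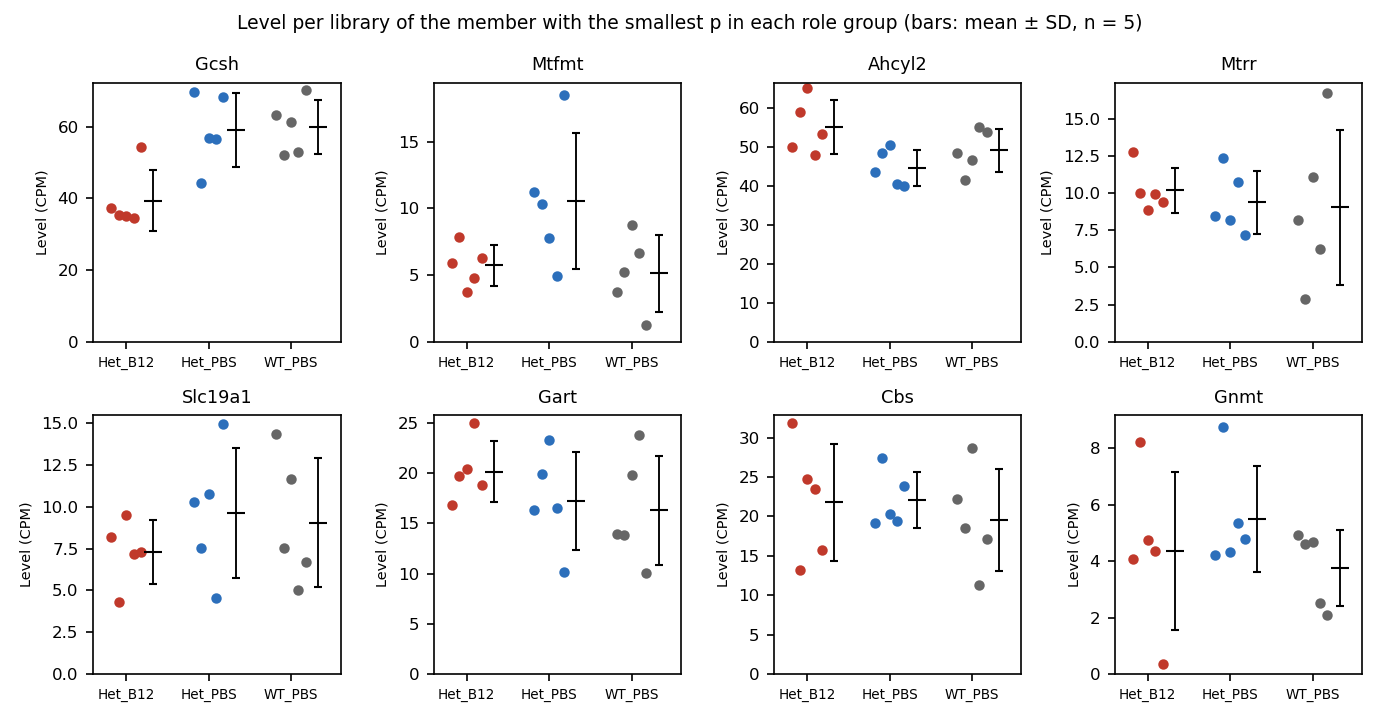
Level in every library (CPM) of the member with the smallest p of each role in the comparison of Het_B12 with Het_PBS libraries, with mean ± SD (n = 5). Gcsh has 4 of 5 Het_B12 libraries below every PBS library, and the groups overlap in every panel.

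Methionine synthase, the enzyme that uses vitamin B12 in the methionine cycle, did not pass in any comparison. Mtr, which encodes it, averaged 11.2 ± 2.15 CPM in Het_B12 libraries, 11.3 ± 0.927 CPM in Het_PBS libraries and 11.2 ± 4.08 CPM in WT_PBS libraries. Its log2 fold change between Het_B12 and Het_PBS libraries was 0.00 ± 0.28 (95% interval -0.57 to 0.57). Mtrr, the reductase that returns the bound cobalamin to its active form, had 12.7, 10.0, 8.83, 9.93 and 9.42 CPM in Het_B12 libraries. Mtrr had 8.42, 12.3, 8.20, 10.7 and 7.17 CPM in Het_PBS libraries and 8.21, 2.89, 11.1, 6.25 and 16.7 CPM in WT_PBS libraries, the widest of the 3 ranges. Its log2 fold change was 0.10 ± 0.33 between Het_B12 and Het_PBS libraries (adjusted p 0.902).

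Among the enzymes that interconvert folate forms 7 of 9 members were tested, none passed, and the median log2 fold change between Het_B12 and Het_PBS libraries was -0.40. Mtfmt, which formylates the initiator methionyl-tRNA of mitochondria, had the largest fold change of the 24 members in size. It had 5.91, 7.88, 3.73, 4.77 and 6.28 CPM in Het_B12 libraries, 11.2, 10.4, 7.77, 4.96 and 18.5 CPM in Het_PBS libraries, and 3.70, 5.21, 8.76, 6.67 and 1.25 CPM in WT_PBS libraries. Het_PBS 5 was the highest library and WT_PBS 5, with 3 reads, the lowest. The log2 fold change was -0.86 ± 0.40 between Het_B12 and Het_PBS libraries (unadjusted p 0.0362, adjusted p 0.193) and -0.58 without Het_PBS 5. Between Het_PBS and WT_PBS libraries it was 1.05 ± 0.41 (unadjusted p 0.0151, adjusted p 0.577) and 0.77 without Het_PBS 5. Both comparisons use the same Het_PBS libraries, on opposite sides, so their opposite signs are not independent. Shmt2, the mitochondrial serine hydroxymethyltransferase, and Mthfd2, the mitochondrial methylene-folate dehydrogenase, had log2 fold changes of -0.52 ± 0.31 and -0.40 ± 0.24 between Het_B12 and Het_PBS libraries. Mthfd1l, the mitochondrial formate-producing synthetase, stood on the other side at 0.41 ± 0.30. Mthfd1, its trifunctional counterpart in the cytosol, was at 0.00 ± 0.32, and Mthfd2l, the paralogue of Mthfd2, at -0.47 ± 0.42. For these 5 genes the adjusted p was 0.348 or higher. Aldh1l1, the cytosolic formyl-folate dehydrogenase and a marker of astrocytes, averaged 21.9 ± 3.87 CPM in Het_B12 libraries, 26.2 ± 7.25 CPM in Het_PBS libraries and 24.3 ± 4.45 CPM in WT_PBS libraries, with a log2 fold change of -0.26 ± 0.21 (adjusted p 0.512) between Het_B12 and Het_PBS libraries.

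None of the 3 tested genes of folate uptake and polyglutamate handling passed. Slc19a1, the reduced folate carrier, had 8.18, 4.30, 9.51, 7.15 and 7.32 CPM in Het_B12 libraries, 10.3, 7.56, 10.8, 4.54 and 14.9 CPM in Het_PBS libraries, and 14.4, 7.52, 11.7, 5.00 and 6.69 CPM in WT_PBS libraries. The ranges overlapped, and the log2 fold change between Het_B12 and Het_PBS libraries was -0.38 ± 0.35 (adjusted p 0.585) and -0.18 without Het_PBS 5. Col18a1 overlaps Slc19a1 on the opposite strand with 305 reads beside its 295, so without a stated strand setting the level of Slc19a1 is uncertain. Slc46a1, the proton-coupled folate transporter, was at -0.08 ± 0.35 between Het_B12 and Het_PBS libraries. Without Het_PBS 5, which had 2 reads of Slc46a1, the value was -0.34. Ggh, the hydrolase that removes glutamates from folate, averaged 6.56 ± 1.70 CPM in Het_B12 libraries, 7.48 ± 3.19 CPM in Het_PBS libraries and 3.83 ± 2.34 CPM in WT_PBS libraries, where WT_PBS 3 had 1 read. Its log2 fold change was 0.95 ± 0.44 between Het_PBS and WT_PBS libraries (unadjusted p 0.0374, adjusted p 0.640), 0.72 without WT_PBS 3 (unadjusted p 0.101), and -0.18 ± 0.41 between Het_B12 and Het_PBS libraries.

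For nucleotide synthesis 2 of 3 members were tested, and neither passed. Gart, a trifunctional enzyme of purine synthesis that uses formyl-folate, had 16.8, 19.7, 20.4, 25.03 and 18.8 CPM in Het_B12 libraries. Het_PBS libraries had 16.4, 19.9, 23.3, 16.5 and 10.2 CPM of Gart, and WT_PBS libraries had 13.96, 13.9, 19.9, 23.8 and 10.0 CPM. The lowest library in both PBS groups was near 10 CPM and the log2 fold change between Het_B12 and Het_PBS libraries was 0.21 ± 0.24 (adjusted p 0.668). Atic, which makes the last steps of purine synthesis, was at -0.04 ± 0.29.

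The genes around S-adenosylmethionine were the best measured of the 33, with standard errors of 0.12 to 0.15 in the comparison of Het_B12 with Het_PBS libraries, and none of the 4 tested passed. Mat2a averaged 190 ± 15.1 CPM in Het_B12 libraries, 175 ± 23.3 CPM in Het_PBS libraries and 204 ± 31.5 CPM in WT_PBS libraries. Its log2 fold change was 0.12 ± 0.12 (95% interval -0.12 to 0.35) between Het_B12 and Het_PBS libraries and -0.22 ± 0.12 (adjusted p 0.690) between Het_PBS and WT_PBS libraries. Ahcyl1 was at -0.20 ± 0.12 (adjusted p 0.322) and Mat2b at -0.21 ± 0.15 (adjusted p 0.460) between Het_B12 and Het_PBS libraries. Ahcyl2 had 50.0, 59.1, 65.2, 48.1 and 53.4 CPM in Het_B12 libraries, 43.5, 48.6, 50.5, 40.5 and 40.1 CPM in Het_PBS libraries, and 48.5, 41.6, 46.7, 55.0 and 53.9 CPM in WT_PBS libraries. Het_B12 values lay towards the upper end and Het_PBS values towards the lower end, with overlap, and the log2 fold change was 0.30 ± 0.14 (unadjusted p 0.0400, adjusted p 0.202). Intervals within a 2-fold change either way were found for all 4 of these genes in each comparison.

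Cbs, which condenses homocysteine with serine on the way to cysteine, had 31.8, 13.3, 24.8, 23.4 and 15.7 CPM in Het_B12 libraries. It had 19.2, 27.5, 20.3, 19.4 and 23.9 CPM in Het_PBS libraries and 22.2, 18.5, 28.6, 11.3 and 17.1 CPM in WT_PBS libraries. The Het_B12 range enclosed the Het_PBS range, and the log2 fold change was -0.03 ± 0.24 (95% interval -0.51 to 0.46) and -0.19 without Het_B12 1. Gnmt, a glycine methyltransferase known mainly from liver, had 4.09, 8.24, 4.75, 4.37 and 0.349 CPM in Het_B12 libraries, 4.21, 8.76, 4.31, 5.37 and 4.78 CPM in Het_PBS libraries, and 4.93, 4.63, 4.67, 2.50 and 2.09 CPM in WT_PBS libraries. Het_B12 5 had 1 read of it, and the log2 fold change between Het_B12 and Het_PBS libraries was -0.34 ± 0.47 (adjusted p 0.733). Gamt, which makes creatine from guanidinoacetate, averaged 16.6 ± 3.24 CPM in Het_B12 libraries, 16.7 ± 5.64 CPM in Het_PBS libraries and 18.8 ± 3.54 CPM in WT_PBS libraries, with a log2 fold change of 0.00 ± 0.24 between Het_B12 and Het_PBS libraries.

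The other 9 members had too few reads to be tested. Over the 15 libraries together Aldh1l2, the mitochondrial counterpart of Aldh1l1, had 118 reads, thymidylate synthase (Tyms) 100, the S-adenosylhomocysteine hydrolase Ahcy 84, the phosphatidylethanolamine methyltransferase Pemt 69, the cystathionine lyase Cth 68, the folate polyglutamate synthase Fpgs 66 and the cytosolic serine hydroxymethyltransferase Shmt1 57. Bhmt, which remethylates homocysteine with betaine and is known mainly from liver, had 3 reads in Het_B12, 15 in Het_PBS and 10 in WT_PBS libraries. Nnmt, the nicotinamide methyltransferase, had 1 read in Het_B12, 13 in Het_PBS and 6 in WT_PBS libraries. With no filter on low counts none of the 9 passed in edgeR's test. The smallest adjusted p was 0.154 for Het_B12 against Het_PBS libraries (2 genes, Bhmt and Nnmt, at an unadjusted p under 0.05), 0.443 for Het_PBS against WT_PBS libraries (1 gene, Cth) and 0.270 for Het_B12 against WT_PBS libraries (1 gene, Aldh1l2). Het_PBS 5 alone held 8 of the 15 Het_PBS reads of Bhmt, 6 of 13 of Nnmt and 20 of 37 of Cth. Several of these counts are uncertain. Ahcy shares its 3′ end with Gm4737 at 100% identity over 234 bases and Tyms with its pseudogene at 98.7% over 154 bases, and reads that map to several places may have been lost. Bhmt matches transcripts of Emc3 (130 bases, 2535 reads) and Ecsit (104 bases, 1146 reads) at 95% identity or more. Among tested members Cbs matches Atf7ip over 115 bases, Mtfmt Gm26885 over 126, Mat2a Gm9523 over 107 and Mtrr Eif2a over 60. The part of such matches in these counts was not tested. Genes with more reads overlap Aldh1l2 (D10Wsu102e), Fpgs (Eng) and Shmt1 (Smcr8) on the opposite strand.

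**Figure D3:**
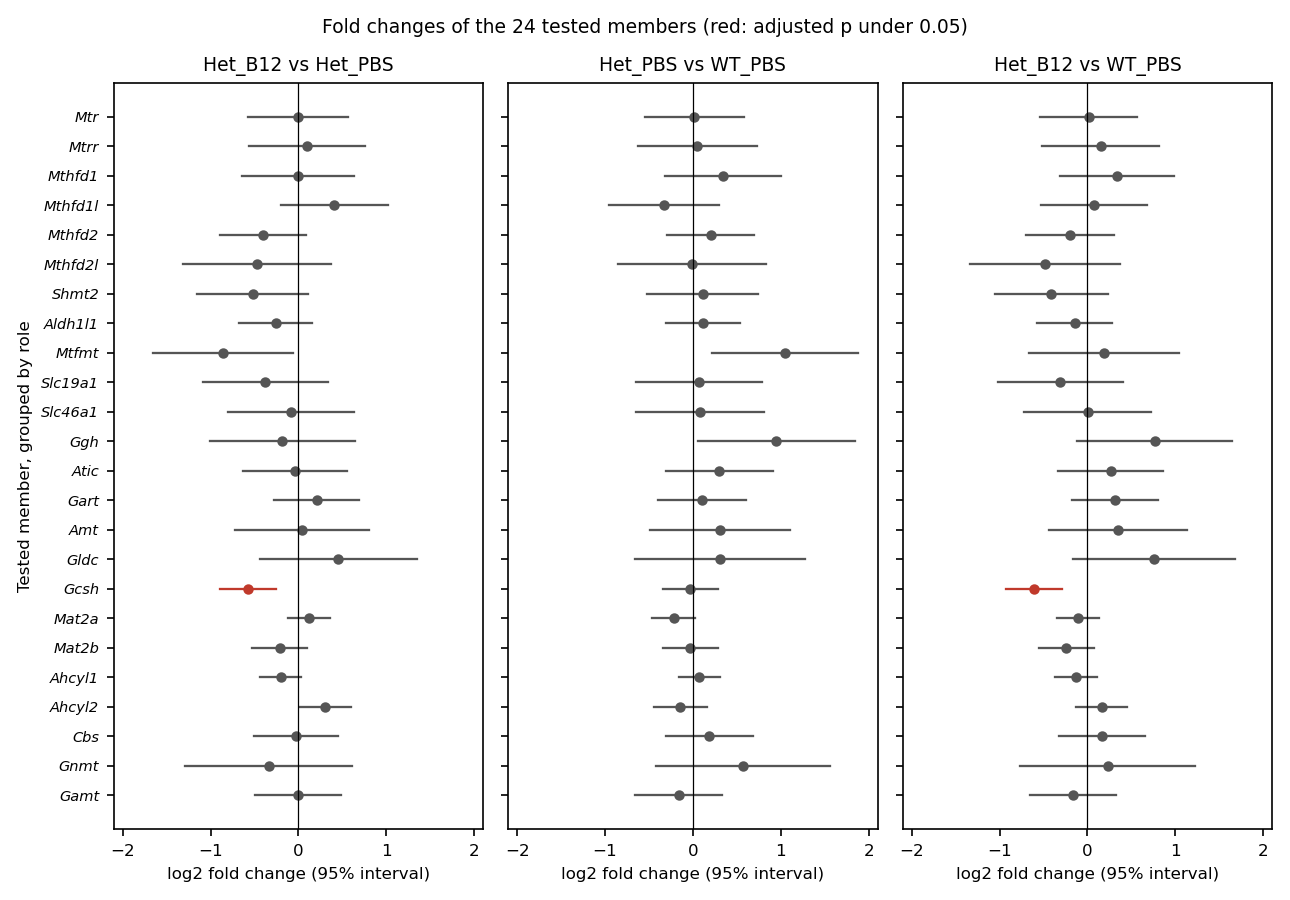
Log2 fold change of each tested member with its 95% interval, in the comparisons of Het_B12 with Het_PBS, Het_PBS with WT_PBS and Het_B12 with WT_PBS libraries. Gcsh is the member called in both comparisons of Het_B12 libraries, and no member is called between Het_PBS and WT_PBS libraries.

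Genotype under PBS was compared next. The Het_PBS libraries here are those that Het_B12 libraries were set against, so opposite fold changes in both comparisons are not independent. Between Het_PBS and WT_PBS libraries 0 of the 24 members passed, and 0% of all genes did in edgeR's test; DESeq2 and limma-voom also called 0 members. At an unadjusted p under 0.05 there were 2 members, Mtfmt and Ggh (8.33%, against 7.5% of all genes). No member had ranges that did not overlap, against 0.836% of all genes. The fold change was under 0 for 7 members (29.2%, against 51.1% of all genes), with a median log2 fold change of 0.09 for the members and -0.01 for all genes. For 19 members (79.2%, against 78.9% of all genes) the 95% interval lay within a 2-fold change either way. Standard errors of the members ranged from 0.12 to 0.49, and were largest for the sparse members.

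Het_B12 libraries were also set against WT_PBS libraries, a comparison that shares its groups with both others and is not independent of them. Gcsh was again the 1 member called (4.17%, against 7.33% of all genes, 3.22% higher and 4.11% lower), by edgeR as by DESeq2 and limma-voom. It was also the 1 member at an unadjusted p under 0.05, where 21.6% of all genes stood. Ranges overlapped for all 24 members, against 5.38% of all genes without overlap, and 10 members had a fold change under 0 (41.7%, against 49.2%). The median log2 fold change was 0.05 for the members and 0.01 for all genes, and 16 members (66.7%, against 75.1% of all genes) had an interval within a 2-fold change either way. Ggh and Gldc had the largest positive log2 fold changes, 0.76 ± 0.44 and 0.76 ± 0.45, with adjusted p of 0.319 and 0.343.

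Genes of neighbouring pathways were given by 7 lists of textbook genes, none of them members, chosen with earlier results of these data known. Of all genes tested, 7.26% were called between Het_B12 and Het_PBS libraries and 7.33% between Het_B12 and WT_PBS libraries. A call of 1 gene among 17 or 13, as below, is near that share. Chka, the choline kinase that starts the synthesis of phosphatidylcholine from choline, rose with vitamin B12 and was the 1 gene of 8 tested in the list on choline and betaine to pass. It had 88.2, 86.4, 58.1, 65.9 and 57.9 CPM in Het_B12 libraries, 47.3, 23.9, 41.4, 26.4 and 25.1 CPM in Het_PBS libraries, and 40.2, 31.8, 69.5, 22.9 and 29.2 CPM in WT_PBS libraries. Every Het_B12 library lay above every Het_PBS library, and WT_PBS 3 alone among the WT_PBS libraries lay inside the Het_B12 range. The log2 fold change was 1.11 ± 0.21 (adjusted p 0.000858) against Het_PBS and 0.90 ± 0.21 (adjusted p 0.00668) against WT_PBS libraries, and against WT_PBS libraries 1.19 without WT_PBS 3 and 0.81 without Het_B12 1 (adjusted p 0.0300). Against Het_PBS libraries it was 1.03 without Het_B12 1 (adjusted p 0.00463) and 1.04 without Het_PBS 5 (adjusted p 0.00302). Chkb, its paralogue, did not pass against Het_PBS libraries (0.66 ± 0.28, adjusted p 0.146) or WT_PBS libraries (0.86 ± 0.28, adjusted p 0.0546) in edgeR's test; DESeq2 and limma-voom each called 2 genes of this list against WT_PBS libraries, and in edgeR's test Chkb passed there without WT_PBS 3 (1.22, adjusted p 0.00278) or Het_PBS 5 (0.86, adjusted p 0.0491). Prmt1, the main arginine methyltransferase of the cell, averaged 81.3 ± 18.0 CPM in Het_B12 libraries, 95.9 ± 20.9 CPM in Het_PBS libraries and 132 ± 27.6 CPM in WT_PBS libraries. It fell against WT_PBS libraries (log2 fold change -0.70 ± 0.16, adjusted p 0.00418), as 1 of 17 methyltransferases tested, and was at -0.78 without WT_PBS 3 (adjusted p 0.000826) and -0.71 without Het_B12 1 (adjusted p 0.0106). Nupr1, a stress-induced chromatin protein, was the 1 of 13 tested targets of the integrated stress response that fell between Het_B12 and WT_PBS libraries (-0.93 ± 0.30, adjusted p 0.0482). It averaged 8.99 ± 2.92 CPM in Het_B12 libraries and 17.1 ± 1.25 CPM in WT_PBS libraries. Het_PBS libraries had 18.2, 17.9, 5.61, 6.61 and 14.3 CPM of Nupr1 and overlapped both other groups. The call against WT_PBS libraries held in 7 of 15 fits that left out 1 library, and not without Het_B12 1 (adjusted p 0.0626).

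**Figure D4:**
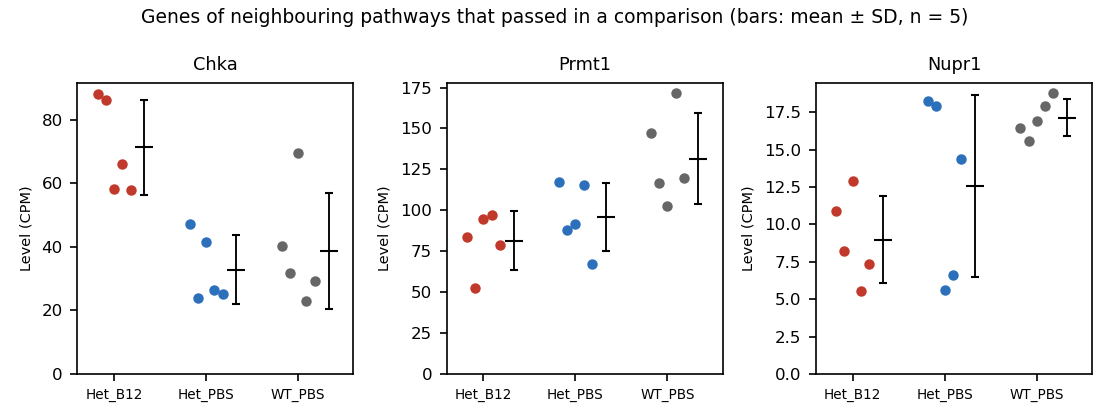
Level in every library (CPM) of Chka, Prmt1 and Nupr1, the genes of the neighbouring pathways that passed in a comparison, with mean ± SD (n = 5). All Het_B12 libraries of Chka lie above all Het_PBS libraries, and WT_PBS 3 lies at 69.5 CPM.

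In the other lists 0 genes passed in edgeR's test in any of the 3 comparisons, among 14 tested of vitamin B12 handling, 5 of serine synthesis, 7 other folate genes and 12 of polyamines and methionine salvage; DESeq2 and limma-voom called 0 too. Of these 38 genes, 4 had an unadjusted p under 0.05 for Het_B12 against Het_PBS libraries (10.5%, against 21.7% of all genes), 6 for Het_PBS against WT_PBS libraries (15.8%, against 7.5%) and 6 for Het_B12 against WT_PBS libraries (15.8%, against 21.6%). Without WT_PBS 3 the amino acid transporter subunit Slc3a2, of the polyamine and methionine list, passed between Het_B12 and WT_PBS libraries (0.44, adjusted p 0.0308), as did Prmt2 (0.55, adjusted p 0.0109) and Pck2 of the stress response list (0.99, adjusted p 0.0209). The lists of methyltransferases and stress response targets had 0 calls between Het_B12 and Het_PBS libraries by any of these tools. Mut, the mitochondrial methylmalonyl-CoA mutase and the other mammalian enzyme that uses vitamin B12, had a log2 fold change of -0.38 ± 0.18 between Het_B12 and Het_PBS libraries (unadjusted p 0.0418, adjusted p 0.208). Mut was at 0.38 ± 0.19 between Het_PBS and WT_PBS libraries (adjusted p 0.660) and at -0.0015 ± 0.19 between Het_B12 and WT_PBS libraries. Thap11, a transcription factor known in people to control cobalamin processing, had 0.84 ± 0.23 between Het_PBS and WT_PBS libraries (adjusted p 0.473). Phgdh, the first enzyme of serine synthesis, had -0.80 ± 0.36 between Het_B12 and Het_PBS libraries (adjusted p 0.185). Its Het_PBS level was spread widely, at 11.2 ± 7.25 CPM. Phgdh was at 0.78 ± 0.37 between Het_PBS and WT_PBS libraries (adjusted p 0.640) and at -0.01 ± 0.38 between Het_B12 and WT_PBS libraries. Folr1, a folate receptor of the choroid plexus, had -0.91 ± 0.36 (adjusted p 0.116) and Prmt2 0.42 ± 0.15 (adjusted p 0.0783) between Het_B12 and Het_PBS libraries.

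Markers of several cell types moved between the same groups as Gcsh, and in bulk tissue fewer cells of a type and less RNA per cell cannot be told apart. The marker lists were chosen with earlier results of these data known, so the shares called are descriptions. Of 14 astrocyte markers 10 fell between Het_B12 and Het_PBS libraries (3.79% of all genes did) and 8 fell between Het_B12 and WT_PBS libraries (4.11% of all genes). Their median log2 fold change was -0.48 against Het_PBS and -0.44 against WT_PBS libraries. Against WT_PBS libraries 10 fell without WT_PBS 3 and 6 without Het_B12 1; against Het_PBS libraries the count was 10 without Het_B12 1, Het_PBS 5 or WT_PBS 3. Their summed level ranged over 5402 to 6369 CPM in Het_B12 libraries, 8113 to 9229 CPM in Het_PBS libraries and 6653 to 9097 CPM in WT_PBS libraries. None of the 14 was at 0 reads in any library. S100b, a calcium-binding protein of astrocytes, fell by 0.82 on the log2 scale against Het_PBS libraries (adjusted p 3.87e-06). Aldh1l1 and Gldc, the members that also mark astrocytes, did not pass, with the values given above. The part of astrocyte RNA in the level of Gcsh was not tested.

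**Figure D5:**
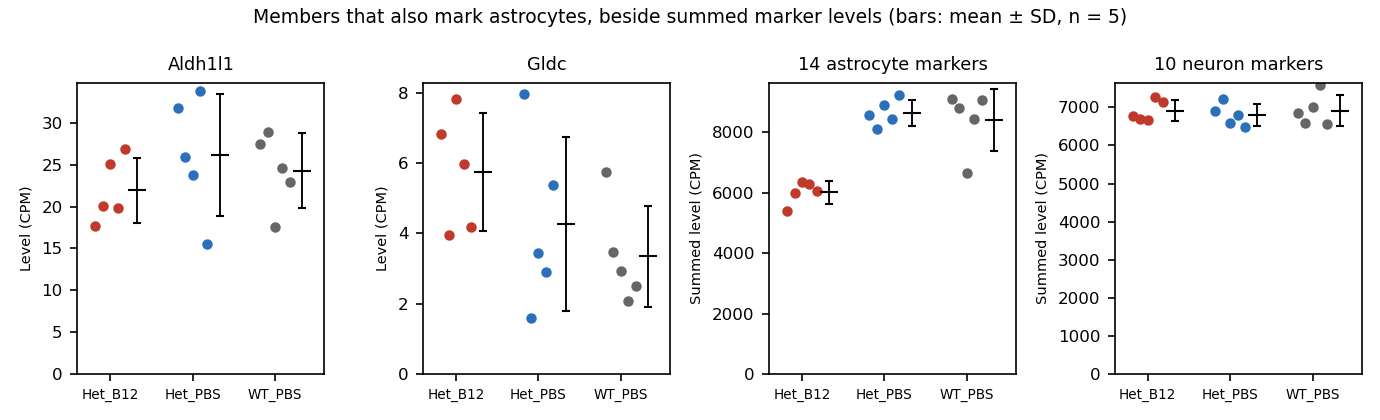
Level in every library (CPM) of Aldh1l1 and Gldc, members that also mark astrocytes, beside the summed level of 14 astrocyte markers and 10 neuron markers, with mean ± SD (n = 5). Summed astrocyte markers lie at 5402 to 6369 CPM in Het_B12 libraries and at 8113 to 9229 CPM in Het_PBS libraries, while Aldh1l1 and Gldc overlap between the groups.

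Other cell types moved as well between Het_B12 and Het_PBS libraries. Of the markers tested, 5 of 10 of microglia, 4 of 6 of meninges and fibroblasts, 3 of 4 of leukocytes, 5 of 5 of red cells and 3 of 9 of oligodendrocytes fell. Those of endothelium (5 of 8) and neurons (1 of 10) rose. Of all genes tested, 3.79% were called lower and 3.47% higher. Without Het_B12 1 the calls were 1 of 9 for oligodendrocytes, 3 of 8 for endothelium and 0 of 10 for neurons. Without Het_PBS 5 they were 3 of 6 for meninges and fibroblasts, 2 of 5 for leukocytes, 4 of 8 for endothelium and 0 of 10 for neurons. Microglia kept 5 of 10 and red cells 5 of 5 in both fits. Red cell markers ranged, summed, over 499 to 980 CPM in Het_B12 libraries, 778 to 4991 CPM in Het_PBS libraries and 486 to 1297 CPM in WT_PBS libraries. Between Het_B12 and WT_PBS libraries 0 of the 5 passed in edgeR, DESeq2 or limma-voom, and 0 had an unadjusted p under 0.05. Between Het_PBS and WT_PBS libraries 0 passed by any of the 3 tools, 4 had an unadjusted p under 0.05 and the median log2 fold change was 1.30; without Het_PBS 5, 2 of the 5 were called higher in edgeR's test. Markers of oligodendrocyte precursors had 0 of 6 calls by any of the 3 tools, and those of choroid plexus, a tissue that also expresses Folr1, had 0 of 7 by edgeR and 1 by DESeq2 and by limma-voom, with 1 and 2 at an unadjusted p under 0.05. Summed microglial markers ranged over 376 to 455 CPM in Het_B12 libraries and 578 to 786 CPM in Het_PBS libraries, and summed endothelial markers over 198 to 266 CPM in Het_B12 libraries and 94.0 to 141 CPM in Het_PBS libraries. The share of counts on Gm42418, a gene that overlaps ribosomal RNA sequence, was 5.29 ± 1.25% in Het_B12 libraries, 8.52 ± 1.73% in Het_PBS libraries and 11.9 ± 1.78% in WT_PBS libraries (SD, n = 5 each). In a fit without Gm42418 and mitochondrial genes Gcsh passed in both comparisons of Het_B12 libraries. Beyond that fit, the part of Gm42418 in the level of Gcsh, Chka or Prmt1 was not tested. The genes tested were put in 5 classes of equal size by transcript length, taken as the median over the annotated transcripts of a gene. Between Het_B12 and Het_PBS libraries the median log2 fold change was -0.07 in the shortest class and 0.06 in the longest. It was 0.0012 in the class that holds Gcsh, next to the shortest. From the shortest class to the longest, 7.90%, 4.01%, 3.63%, 2.18% and 1.20% of genes were called lower. The part of transcript length in the fall of Gcsh was not tested.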

How the data were processed

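RNA was measured in 15 mouse brain libraries made, per the labels' protocols, with QuantSeq 3′ chemistry. The authors deposited 1 table of raw counts per gene and library; reads were handled with STAR, HTSeq and edgeR on mm10, per the submitters' processing notes. Versions, strand setting and handling of duplicate or multi-mapped reads: not given in the sources used here. All 15 columns were mapped to samples by their names, and groups came from the sample titles.

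Counts were analysed in R 4.3.3 with edgeR 4.0.16: genes were kept by filterByExpr (11718), scaled by TMM factors and fitted with glmQLFit, using the 15 libraries together, a mean for each group and no covariate (12 residual degrees of freedom; the biological coefficient of variation was 0.181). Contrasts were tested with glmQLFTest, two-sided, and called where p, adjusted by Benjamini-Hochberg over all genes tested, was under 0.05. CPM are TMM-normalised, and ± is the SD over libraries or, for a log2 fold change, its SE. Counting floors of 3 reads cover counting error only. The fit was also run on counts simulated from its own dispersions. These held no libraries that stand apart, so that run cannot vouch for the calls in these data. Alternatives were DESeq2 1.42.0, limma-voom (limma 3.58.1), DESeq2 size factors, other filters, library sizes without Gm42418 and mitochondrial genes, a replicate block, the 10 libraries of the groups compared alone, and fits without 1 or 2 libraries.

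The members and lists were chosen with earlier results of these data known. A member was given in every library when it passed in a comparison or had the smallest p of its role between Het_B12 and Het_PBS libraries; of the lists, members that passed were named, or else up to 2 with the smallest p in a comparison. Chkb, S100b, Slc3a2 and Pck2 were named after their values were seen.

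All 33 members matched GENCODE M21 (GRCm38), which gave coordinates, overlaps and 3′ ends; the ends were compared with blastn 2.17.0. Promoter windows came from RefSeq (GRCm38.p6) for 29 members. Protein sequences were not used here. Chi-square per degree of freedom was 3.03 or more for the 30 pairs of libraries within groups and 10.3 for Het_B12 1 with Het_PBS 5, and none was counted as a copy of another.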

Additional observations from a re-analysis of the deposited data

Results flagged for a closer look

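Among 72 values checked, 24 members in 3 groups of 5 libraries each, 6 libraries stood apart from the other 4 of their group by more than 0.71 of the group's range, the limit for 5 samples, a rule that also marks some groups by chance. Gcsh was at 54.4 CPM in Het_B12 5, against 34.6 to 37.3 CPM in the other Het_B12 libraries, and leaving this library out gave a log2 fold change of -0.73 against Het_PBS libraries. Mthfd1 was at 5.97 CPM (15 reads) in Het_PBS 2, against 13.6 to 14.3 CPM in the other Het_PBS libraries. Gnmt was at 8.76 CPM in the same library, against 4.21 to 5.37 CPM in the others. Amt was at 17.3 CPM in Het_PBS 1, against 5.57 to 8.97 CPM in the others of that group. Mthfd2l was at 10.5 CPM (18 reads) in WT_PBS 3, the library that lay beside the Het_B12 libraries on the first principal component, against 4.60 to 6.16 CPM in the other WT_PBS libraries. Gamt was at 24.9 CPM in WT_PBS 2, against 16.3 to 18.7 CPM in the others.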

How the results depend on the processing

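Gcsh passed between Het_B12 and Het_PBS libraries in 22 of 25 alternatives and between Het_B12 and WT_PBS libraries in 24 of 25. The other 23 tested members passed in none of the 25 in any comparison, with smallest adjusted p of 0.129 (Mtfmt, Het_B12 against Het_PBS), 0.341 (Ggh, Het_PBS against WT_PBS) and 0.177 (Mat2b, Het_B12 against WT_PBS). With the replicate number as a block the count of members called stayed at 1, 0 and 1 in the comparisons of Het_B12 with Het_PBS, Het_PBS with WT_PBS and Het_B12 with WT_PBS, with 830, 0 and 800 of all genes called, and Gcsh was at -0.59 against Het_PBS libraries (adjusted p 0.00970). The labels do not say that the numbers pair the samples. Libraries with the same number deviated from their group means with correlations of -0.09 to 0.11. In the same comparisons 1, 2 and 2 of 5 correlated best with their own number, and so few libraries cannot exclude a pairing.

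Leaving out 1 library at a time gave 0 to 1 members called in each comparison of Het_B12 libraries, and over all genes 549 to 1050 calls for Het_B12 against Het_PBS, 0 to 14 for Het_PBS against WT_PBS and 449 to 1268 for Het_B12 against WT_PBS. For Het_PBS against WT_PBS no filter on low counts gave 40 calls, leaving out WT_PBS 3 and Het_PBS 5 together gave 1, and leaving out WT_PBS 3 and Het_B12 1 together, chosen after seeing the data, gave 2; none was a member. For Het_B12 against WT_PBS, leaving out WT_PBS 3 and Het_PBS 5 together gave 1390 calls. The cause was not tested.

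Of the values of named genes 658 kept their direction and side of the threshold, 13 lost the call and 20 changed sign. None of those that changed sign had passed. Without WT_PBS 3 and Het_PBS 5 together Slc19a1 was at -0.027 between Het_PBS and WT_PBS libraries, and limma-voom put Gnmt at -0.16 between Het_B12 and WT_PBS libraries. The other changes of sign came from leaving out 1 library. Cbs ranged over -0.19 to 0.11 between Het_B12 and Het_PBS libraries. Between Het_PBS and WT_PBS libraries the ranges were -0.16 to 0.41 for Mtrr, -0.13 to 0.32 for Slc19a1, -0.040 to 0.29 for Gart and -0.10 to 0.062 for Gcsh. Between Het_B12 and WT_PBS libraries they were -0.057 to 0.51 for Mtrr, -0.0056 to 0.33 for Cbs, -0.14 to 0.53 for Gnmt and -0.076 to 0.45 for Mtfmt. Depth limits the sparse members most, since 3 reads in a library amount to 1.02 to 1.79 CPM.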
